A study of Mus musculus with 2 samples.

Results

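Stromal fibroblasts of the mouse ovary were chosen by their transcripts. A cell was counted as one when it held UMIs (unique molecular identifiers, each standing for 1 captured mRNA molecule) of at least 4 of the 6 genes Col1a1, Dcn, Lum, Mfap4, Tcf21 and Cdh11, and when these genes summed to at least 2000 CPM (the usual scaled count, relative to all UMIs of the cell or class). Cells with 1000 CPM or more of Cyp17a1, a steroid enzyme of theca cells, 500 CPM or more of Rgs5, a pericyte gene, or 5000 CPM or more of Inha, the inhibin alpha subunit of granulosa cells, were left out. By this rule 3349 of 29623 cells were stromal fibroblasts, after cells with fewer than 500 genes or over 25% of counts from mitochondrial genes had been dropped. They were 1789 of 14853 cells in the control library, or 12.0% (exact Clopper-Pearson 95% interval 11.5 to 12.6). In the exposed library they were 1560 of 14770 cells, or 10.6% (10.1 to 11.1). Of cells with under 2000 CPM of Cyp11a1, a steroid enzyme of luteal cells, they were 12.6% in both libraries.

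The cells came from ovaries of female ICR mice, an outbred strain, and were captured on BD Rhapsody beads. Gavage was daily, began after weaning at 3 weeks of age and ran for 35 days, and the mice were 8 weeks old at sampling. Control mice received ddH2O, and exposed mice received 1 mg of polystyrene microplastics of 0.1 µm (PS-MPs) in 100 µL per mouse. Each group is 1 library of pooled cells, the labels state 16 mice without saying whether per group or in all, and no cell is tied to a mouse. There is therefore no replicate check and no test: every difference given here is between these 2 libraries, and intervals cover counting error only.

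Stromal fibroblasts fill the space between follicles and build its collagen scaffold. They respond to hedgehog ligands made by granulosa cells, and part of the lineage supplies theca cells around growing follicles. Fibroblasts also sense interferons, through receptors that activate JAK kinases and STAT factors, and then transcribe a shared set of antiviral genes, the interferon-stimulated genes.

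Control fibroblasts gave 17137107 UMIs in all (median 8661 per cell and 3195 genes) and exposed fibroblasts 13217091 (median 7659 and 2941). Mitochondrial counts had medians of 7.22% and 7.44%. The libraries also differed in other cells: rule-based luteal cells (Cyp11a1 at 2000 CPM or more) numbered 501 in the control and 2392 in the exposed library, and macrophages or monocytes 696 and 303. RNA set free by broken cells can be captured together with any cell, so genes whose level in fibroblasts was under 0.1 times that of another class are given apart at the end, with the level in luteal cells beside other genes that are high there. The limit of 0.1 was applied in the library where the gene's fibroblast level was higher. Spp1, Ephx2, S100a6, Col18a1, Chchd10 and Tnc passed it there, in the exposed library, and lay under it in the control library; for them the part of free RNA in the ratio was not tested. The libraries shared 3 cell numbers, and 0 fibroblasts carried one.

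The label was checked against marker genes. Col1a1, which encodes the main chain of type I collagen, stood at 4946 CPM in control and 5976 CPM in exposed fibroblasts, against 122 and 179 CPM in theca cells and 45.8 and 47.4 CPM in granulosa cells. Dcn, the collagen-binding proteoglycan decorin, stood at 1339 and 1388 CPM, and Lum, its relative lumican, at 266 and 245 CPM. Mfap4, a microfibril protein, had 661 and 614 CPM, Tcf21, a transcription factor of mesenchymal progenitors, 368 and 323 CPM, and Cdh11, an adhesion molecule of mesenchyme, 511 and 523 CPM. These 6 levels were set by the rule and are given as a description. All 6 markers were detected in 760 control and 576 exposed fibroblasts, 5 in 742 and 632, and exactly 4 in 287 and 352.

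Markers of other cells were present at varying levels. Cyp17a1 stood at 8.87 and 8.398 CPM, against 6066 and 5193 CPM in theca cells. Rgs5 stood at 1.34 and 2.12 CPM, against 8061 and 7230 CPM in pericytes. Inha stood at 392 and 433 CPM, against 11967 and 11750 CPM in granulosa cells and 538 and 494 CPM in blood endothelial cells. The limits of the rule set these 3 levels, so they check nothing. Summed over the theca marker list, fibroblasts held 559 and 782 CPM, with 4 of 6 markers over 20 CPM and Aldh1a1 the highest; Insl3, a hormone of mature theca cells, had 0 UMIs, although theca cells too held only 0.348 and 0.870 CPM of it. The granulosa list summed to 1012 and 947 CPM with 7 of 10 markers over 20 CPM, and the luteal list to 486 and 735 CPM with 5 of 7, led by Scarb1, the lipoprotein receptor that supplies cholesterol. The pericyte list summed to 564 and 685 CPM with 4 of 10 over 20 CPM, led by Acta2, the blood endothelial list to 141 and 125 CPM with 2 of 8, and the macrophage list to 154 and 96.3 CPM with 1 of 9, Lyz2. Their part in the differences between the libraries was not tested. The 7 oocyte markers, 7 surface epithelium markers and 5 mesothelium or oviduct markers were each under 5 CPM.

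Members just inside and cells just outside the rule are described without a test. The lowest marker sum inside the limit was 2011 CPM in the control and 2003 CPM in the exposed library, and the highest outside it 1994 and 1982 CPM; the members' medians were 7994 and 8985 CPM. Another 68 control and 113 exposed cells reached the sum with only 3 markers detected. Their Pdgfra level, a receptor for platelet-derived growth factor that the rule did not use, was 525 and 534 CPM, near the 588 and 634 CPM of the members. The other limits removed 5 cells per library by Cyp17a1, 3 by Rgs5, and 56 control and 53 exposed cells by Inha.

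Among other genes with at least 50 CPM, 15 were named for the highest fibroblast level relative to the highest other class, taken in the library where that factor was lower; this too is a description. Mfap5, a microfibril protein, stood at 95.4 and 131 CPM, a factor of 15.1. Islr, a membrane protein of mesenchymal cells, stood at 146 and 168 CPM, a factor of 13.6. Frem1 (87.0 and 72.1 CPM), a basement membrane adhesion protein, Cldn1 (55.6 and 39.3 CPM), a tight junction claudin, and Lgi2 (282 and 344 CPM), a secreted leucine-rich protein, followed with factors of 12.9, 10.2 and 9.54. Pdgfra had a factor of 6.42 and Penk, the enkephalin precursor, 6.23. Others in this set were the collagens Col26a1, Col4a4 and Col6a2, the matrix protein Matn2, the imprinted gene Mest, the lymphangiogenic factor Vegfd, the collagen receptor Mrc2 and the neurotrophic receptor Gfra2.

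**Figure D1:**
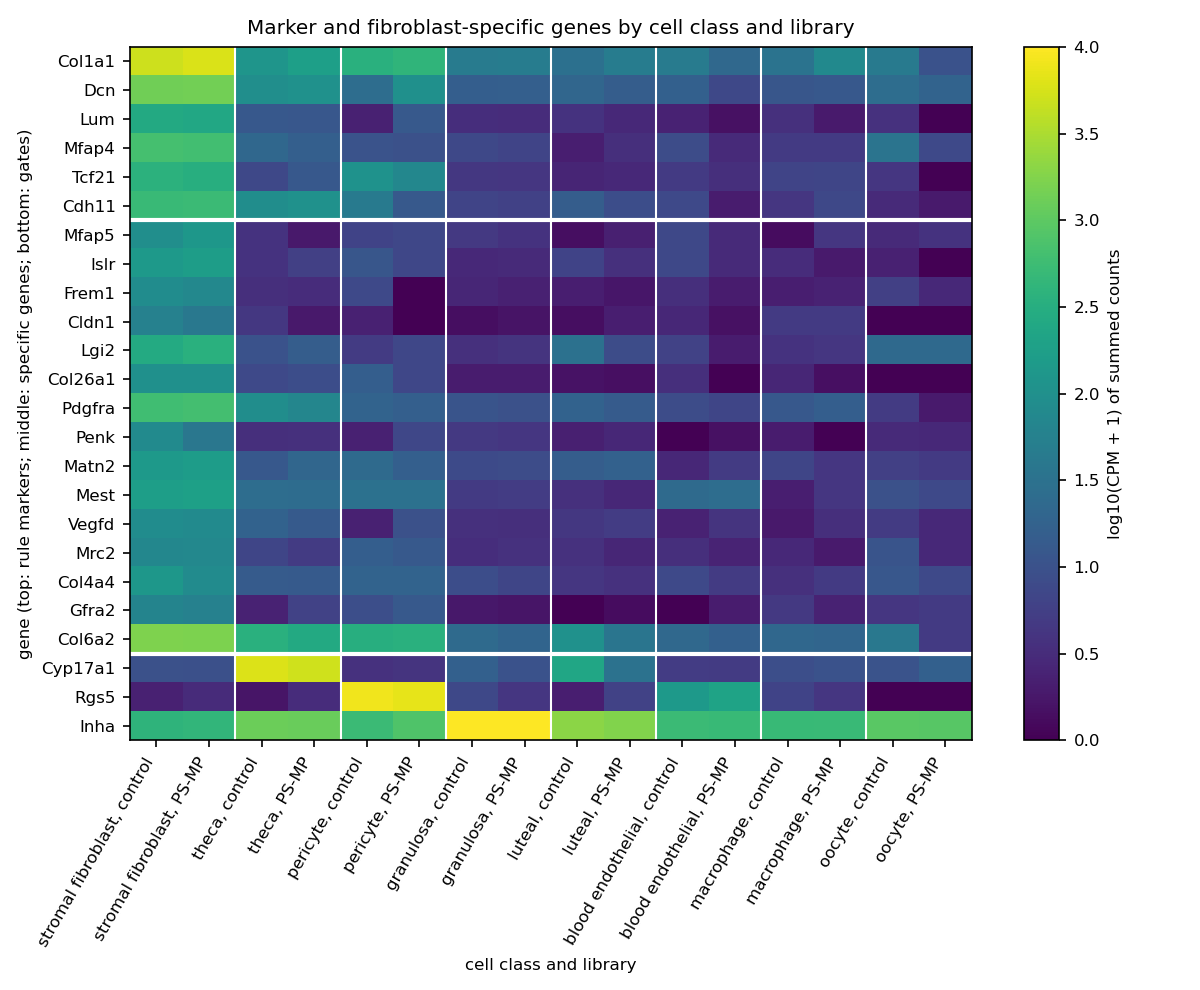
Level of the 6 rule markers (top), 15 fibroblast-specific genes (middle) and 3 excluding genes (bottom) in 8 rule-based cell classes; each class has a control and a PS-MP column, and colour gives log10(CPM + 1) of summed counts. Rule markers and specific genes are brightest in the 2 fibroblast columns, and the 3 excluding genes are brightest in theca, pericytes and granulosa cells.

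Fibroblasts fell into 8 sub-clusters, numbered 0 to 7 and described by their leading genes only. Sub-cluster 0 (489 control and 402 exposed cells) was led by Hgf, hepatocyte growth factor, Col15a1 and the chemokines Cxcl10 and Ccl11. Sub-cluster 1 (355 and 329) was led by Cpa1, Stc1, Cav1 and the steroid enzyme Hsd3b1, and sub-cluster 2 (342 and 253) by smooth muscle myosin Myh11, Clec1a and Mfap5. Sub-cluster 3 (237 and 274) was led by Car3, a carbonic anhydrase, Spp1, the matrix protein osteopontin, Tnc, tenascin C, Wt1 and Wnt4. Sub-cluster 4 (236 and 192) carried mitotic genes such as Prc1 and Top2a.

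The last 3 sub-clusters carried genes of other cells. Sub-cluster 5 (94 and 69 cells) was led by granulosa genes such as Amh and Inha, and scrublet, a doublet caller, marked 45.7% and 47.8% of its cells. Sub-cluster 6 (23 and 18) was led by Lyz2 and Cd74 of macrophages, and sub-cluster 7 (13 and 23) by Kdr and Cldn5 of endothelium with Cyp11a1. Over all fibroblasts scrublet marked 61 control cells (3.41%) and 52 exposed cells (3.33%), which were kept; counts without them are in the closing section. Some sub-clusters therefore hold mixed cells. Sub-cluster 3 made up 13.2% (11.7 to 14.9) of control and 17.6% (15.7 to 19.5) of exposed fibroblasts, and its leading genes Car3 and Spp1 differed between the libraries. Sub-cluster sizes were not tested, nor was their part in the ratios over all fibroblasts.

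The question of the comparison is how expression in these cells differed after 35 days of PS-MPs. Of 7180 genes with 20 CPM or more in a library, 67 (0.933%) lay 1.5-fold or more above control in exposed fibroblasts. Another 24 (0.334%) lay 1.5-fold or more below it. The 95% counting interval of each of these ratios excluded 1. Counts at a floor of 20 CPM are large enough that any ratio past 1.5-fold has such an interval, so this is no check on the calls. At 1.2-fold, 377 genes (5.25%) were higher and 431 (6%) lower, and the median log2 ratio of all 7180 was −0.02. The higher genes held interferon-stimulated genes, matrix-modifying genes and genes of the steroid-making luteal cells. The lower genes held macrophage genes and others, among which Penk had the lowest ratio at 50 CPM or more. In the library where the gene's fibroblast level was higher, 18 of the 67 and 9 of the 24 lay under 0.1 times another class. Counting a gene as under the limit in either library, 25 and 9 did.

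**Figure D2:**
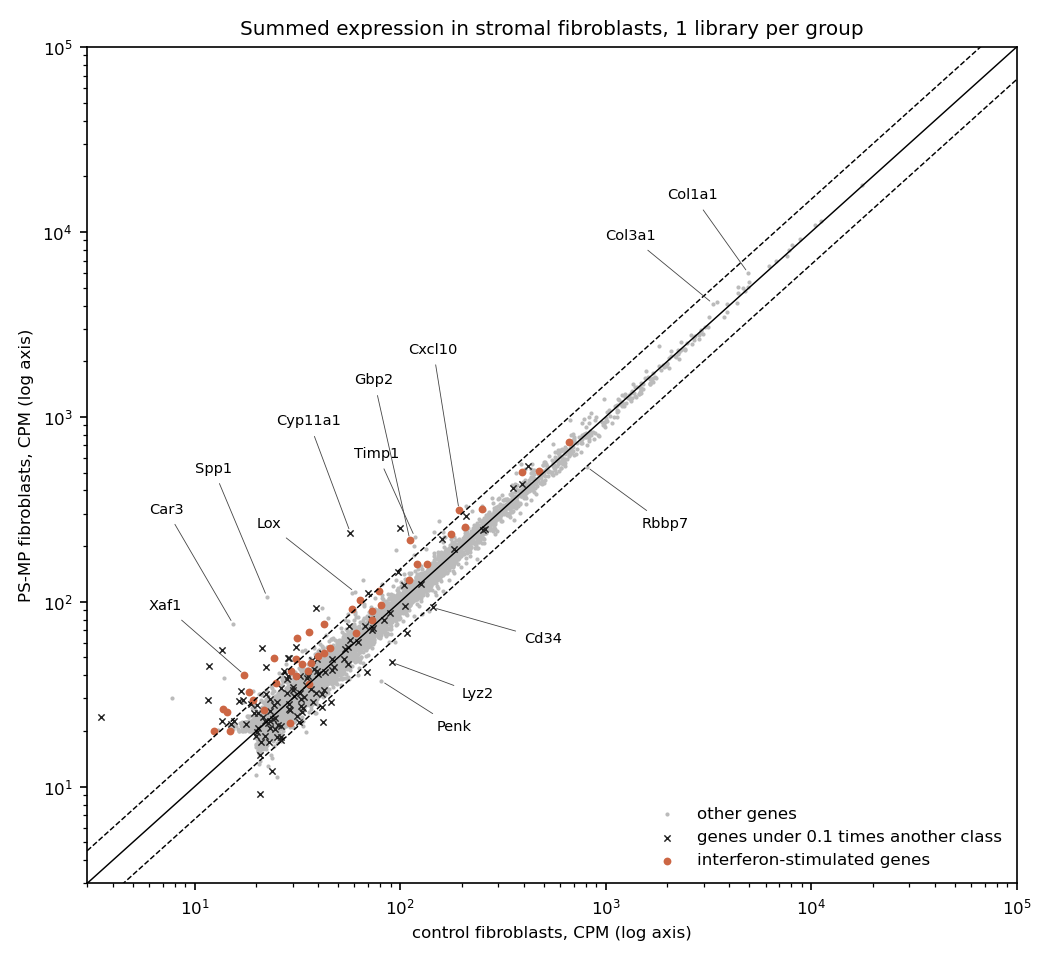
CPM of each gene with at least 20 CPM in a library, in control (x axis) and PS-MP fibroblasts (y axis), both on log axes; the solid line marks equal levels, the dashed lines 1.5-fold, and crosses the genes under 0.1 times another class in the library where their fibroblast level is higher. Most genes lie between the dashed lines, and interferon-stimulated genes lie mostly above the solid line.

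Interferon-stimulated genes were the group with the highest median. Of 42 measured members, 31 were at least 1.2-fold higher in exposed fibroblasts and 1 was lower, against 5.25% and 6% of all genes, and 15 were at least 1.5-fold higher, against 0.933%. Their median log2 ratio was 0.39, beside −0.02 for all genes. The list is known from earlier results of these data to differ, so its direction is a description and not independent evidence.

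Guanylate-binding proteins and immunity-related GTPases, which attack the membranes around intracellular pathogens, made up much of this group. Gbp2 stood at 112 CPM (107 to 117) in control and 215 CPM (208 to 223) in exposed fibroblasts, a ratio of 1.93 (1.82 to 2.04). After thinning each cell to 3500 UMIs, 23.4% of control and 36.5% of exposed fibroblasts held a UMI of Gbp2, and 37.3% and 50.5% did unthinned. In granulosa cells, with median depths of 10513 and 9420 UMIs, the thinned shares were 2.31% and 3.07% and the unthinned ones 6.20% and 7.32%. The fibroblast shares thus lay above the granulosa shares in both libraries. Ratios of the relatives were 1.92 for Gbp3, 1.61 for Gbp7, 1.89 for Ifi47, 1.78 for Irgm2, 1.57 for Irgm1 and 1.62 for Igtp.

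Effectors and small antiviral proteins spanned a wider range. Xaf1, a factor that promotes cell death, stood at 17.4 and 40.3 CPM, a ratio of 2.31 (2.002 to 2.67), the highest of the list. Oasl2, of the oligoadenylate synthetase family, stood at 24.3 and 49.4 CPM, a ratio of 2.03 (1.79 to 2.30). Ifi27l2a, a small mitochondrial membrane protein, stood at 31.4 and 63.6 CPM, a ratio of 2.03 (1.82 to 2.26). Abundant members differed less: Ifitm3, which blocks viral entry, stood at 392 and 506 CPM, a ratio of 1.29 (1.25 to 1.34), and Ifitm2 at 663 and 732 CPM, a ratio of 1.11. Slfn9 was the 1 member past 1.2-fold in the other direction, at 29.1 and 22.1 CPM, a ratio of 0.760.

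The chemokine Cxcl10, which recruits T cells, stood at 194 CPM (187 to 200) in control and 313 CPM (304 to 323) in exposed fibroblasts, a ratio of 1.62 (1.54 to 1.69). Few cells carried it. Thinned shares of cells with a UMI were 16.3% and 19.5% in fibroblasts and 1.13% and 2.02% in granulosa cells, and the tenth of fibroblasts with the most Cxcl10 held 89.3% and 85.5% of its UMIs. Sub-cluster 0 had the highest level, 499 and 778 CPM, and sub-cluster 2 the highest ratio of sub-clusters 0 to 5, 51.3 and 142 CPM.

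Of the signalling genes, Stat2 had a ratio of 1.24, Irf9 one of 1.25 and Socs1 one of 1.19. Irf1 stood at 475 and 512 CPM, a ratio of 1.08. Larger ratios in this group included that of Irf8, at 19.3 and 29.4 CPM, 1.52 (1.31 to 1.77). Macrophages held 185 and 198 CPM of Irf8. Irf7 and Usp18, under 20 CPM in both libraries, had ratios of 1.76 (1.31 to 2.38) and 2.88 (1.61 to 5.34). Receptor chains for interferon gamma and type I interferons had ratios under 1: Ifngr1 stood at 41.0 and 31.7 CPM, a ratio of 0.774 (0.684 to 0.875), Ifngr2 at 0.891, Ifnar1 at 0.962 (0.844 to 1.10) and Ifnar2 at 0.994 (0.875 to 1.13), where the last 2 intervals include 1. Il10rb, a chain shared by the receptors for type III interferons and interleukin 10, stood at 19.8 and 24.6 CPM, a ratio of 1.24 (1.06 to 1.45). Ligands were scarce. Ifng, the type II interferon, had 18 UMIs in all kept control cells and 0 in all kept exposed cells, which allows up to 3 UMIs, and 2 and 0 in fibroblasts. Ifnb1, a type I interferon, had 5 and 1 UMIs in all kept cells and 0 in fibroblasts of either library. The type III interferons Ifnl2 and Ifnl3 had 5 and 1 and 6 and 11 UMIs in all kept cells, and 0 in fibroblasts.

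**Figure D3:**
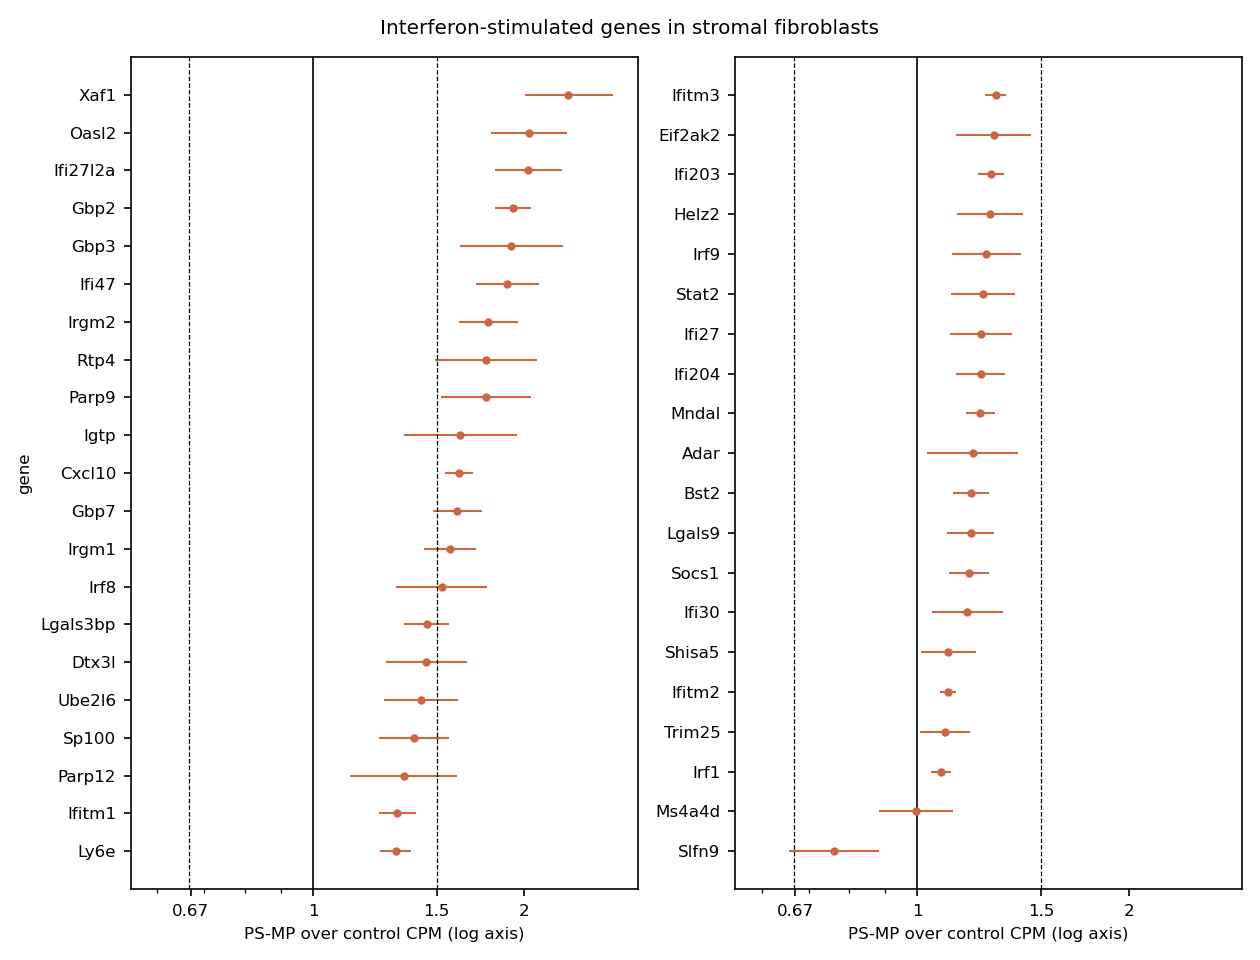
Ratio of PS-MP to control CPM (log axis) for 41 of the 42 measured interferon-stimulated genes in stromal fibroblasts, ordered by ratio; bars are exact 95% intervals for counting error, the solid line marks 1 and the dashed lines 1.5-fold. The ratios run from 0.760 for Slfn9 to 2.31 for Xaf1, with 39 of the 41 drawn above 1.

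Because most of these genes differed in one direction, the DNA before their start sites was read from RefSeq promoters (build GRCm38.p6). The motif searched was GAAA, any 2 bases and GAAA again, a core that IRF factors bind, on both strands of the 250 bases upstream of each start; overlapping matches were counted separately. It was found for 936 of 27025 genes (3.46%) and for 188 of the 5751 genes with at least 20 CPM in fibroblasts that had an entry (3.27%). Of the 35 measured interferon-stimulated genes with an entry, 15 held it, made up of 7 of the 11 at least 1.5-fold higher and 8 of the other 24. The 40-base windows around the match are shown for those 7 genes, and for Slfn9, the 1 lower gene, which held a match too. Capitals mark the motif; where the match is on the opposite strand, they show its reverse complement. All are written 5′ to 3′ on the gene's strand.
Gbp2 (chr3:142620589-142620628, plus strand): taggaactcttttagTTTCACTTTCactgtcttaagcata
Gbp3 (chr3:142559987-142560026, plus strand): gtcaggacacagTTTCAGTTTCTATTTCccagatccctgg
Gbp7 (chr3:142530268-142530307, plus strand): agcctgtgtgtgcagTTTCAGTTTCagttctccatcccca
Igtp (chr11:58199507-58199546, plus strand): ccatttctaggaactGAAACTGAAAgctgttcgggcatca
Irgm2 (chr11:58214898-58214937, plus strand): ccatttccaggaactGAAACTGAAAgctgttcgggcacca
Irgm1 (chr11:48871423-48871462, minus strand): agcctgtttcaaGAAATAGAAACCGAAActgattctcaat
Cxcl10 (chr5:92349078-92349117, minus strand): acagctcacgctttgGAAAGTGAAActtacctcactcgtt
Slfn9 (chr11:82991851-82991890, minus strand): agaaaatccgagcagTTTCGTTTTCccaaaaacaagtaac
The matches of Gbp2, Gbp3, Gbp7, Igtp, Irgm1 and Irgm2 began 24 to 64 bases before the start, that of Slfn9 45 bases and that of Cxcl10 213 bases before it. A match is a description of the letters, not a measured binding site.

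The difference was spread over the fibroblasts. Thinned to 3500 UMIs, a control fibroblast held a median of 13 UMIs of the 42 genes and an exposed one 16; the 10th percentiles were 6 and 7 and the 90th percentiles 27 and 34. Cells with 20 or more such UMIs made up 22.5% of control and 36.2% of exposed fibroblasts. In every sub-cluster from 0 to 5 the summed ratio was above 1, between 1.23 (1.2005 to 1.27) in sub-cluster 3 and 1.40 (1.34 to 1.47) in sub-cluster 5. Gbp2 was higher in each of these 6 sub-clusters, with ratios of 1.71 to 2.12. Sub-cluster 7, with 13 and 23 cells, went the other way at 0.630 (0.570 to 0.696). Its cells were unlike in the 2 libraries: endothelial Kdr stood at 601 and 51.3 CPM and Cyp11a1 at 764 and 4529 CPM. Whether this difference in cells lies behind the ratio of sub-cluster 7 was not tested. Sub-cluster 6, with 23 and 18 cells, had a summed ratio of 1.503 (1.38 to 1.64). Sub-clusters 5 and 6 also carried genes of other cells, and the part of mixed cells in their ratios was not tested.

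**Figure D4:**
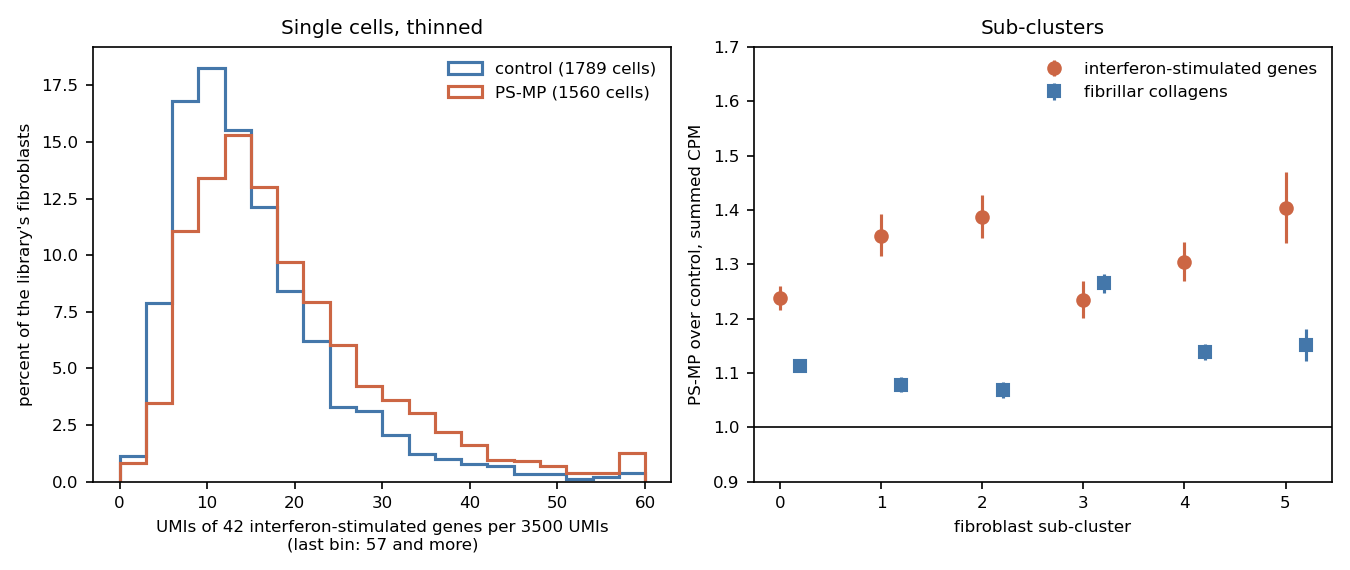
Left, percent of each library's fibroblasts by UMIs of 42 interferon-stimulated genes after thinning to 3500 UMIs per cell. Right, ratio of PS-MP to control summed CPM of these genes (circles) and of the 7 fibrillar collagens (squares) in sub-clusters 0 to 5, with 95% counting intervals; each of the 12 ratios is above 1.

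Other cell classes gave a scale for the list. Its median log2 ratio was 0.55 over 34 measured genes in theca cells, 0.50 over 59 in macrophages or monocytes, 0.42 over 48 in pericytes, 0.25 over 51 in endothelial cells and −0.01 over 17 in granulosa cells, and it was −0.25 in luteal cells. The members measured differ between classes and the difference between classes was not tested. Theca and fibroblast ratios of single genes were not alike everywhere: Cxcl10 stood at 50.5 and 205 CPM in theca cells, a ratio of 4.07. Ifi27l2a, at 1.04 and 0.435 CPM there, was too low to compare.

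Antigen presentation genes had ratios on both sides of 1. Of 16 measured MHC class I and peptide loading genes, 7 were at least 1.2-fold higher and 0 lower, against 5.25% and 6% of all genes, with a median log2 ratio of 0.21. The summed ratio was 1.03, and Calr, Pdia3, Canx and Erap1, chaperones and a trimming peptidase, had ratios of 0.925 to 0.961. H2-T22, a non-classical class I gene, stood at 17.2 and 28.7 CPM, a ratio of 1.67 (1.43 to 1.95), and H2-K1, a classical one, at 161 and 210 CPM, a ratio of 1.30. Psmb10, an immunoproteasome subunit, stood at 1.37 and B2m, the shared light chain, at 532 and 614 CPM, a ratio of 1.16. Near-identical class I genes can share reads, so single ratios among them are uncertain.

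Of the 9 measured complement genes, 5 lay at least 1.2-fold higher and 0 lower, against 5.25% and 6% of all genes, with a median log2 ratio of 0.27 but a summed ratio of 0.991. The median was 0.01 over members with at least 100 CPM and 0.03 without cells with a UMI of another type. C1ra, a protease that starts the classical pathway, stood at 41.6 and 58.0 CPM, a ratio of 1.39. C2 stood at 1.37, or 1.07 without cells with a UMI of another type, the chaperone clusterin (Clu) at 104 and 142 CPM, a ratio of 1.36, or 1.08 with sub-clusters weighted alike, and the membrane inhibitor Cd59a at 1.23.

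Fibrillar collagens were split. Past 1.2-fold, 3 of 7 measured genes were higher and 0 lower, against 5.25% and 6% of all genes, and 4 of the 7 had ratios above 1, with a median log2 ratio of 0.08. Col1a1 stood at 4946 CPM (4913 to 4979) and 5976 CPM (5935 to 6018), a ratio of 1.21 (1.197 to 1.22); as a marker of the rule, this ratio is a description. Col3a1, of type III collagen, stood at 3332 and 4091 CPM, a ratio of 1.23 (1.21 to 1.24), and Col5a2, of type V, at 281 and 362 CPM, a ratio of 1.29 (1.24 to 1.34). Their partner chains did not follow to the same degree: Col1a2 stood at 8040 and 8495 CPM, a ratio of 1.06, and Col5a1 at 587 and 579 CPM, a ratio of 0.986. In sub-clusters 0 to 5, Col3a1 ratios ran from 1.04 (1.01 to 1.07) in sub-cluster 2 to 1.504 (1.46 to 1.55) in sub-cluster 3.

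Other collagens were split. Of 15 measured, 1 was at least 1.2-fold higher, near the 5.25% of all genes, and 3 were lower, against 6%, with a median log2 ratio of 0.00. Col18a1, whose fragment endostatin restrains vessel growth, stood at 58.5 CPM (54.9 to 62.2) and 112 CPM (106 to 118), a ratio of 1.91 (1.76 to 2.07), and was higher in each of sub-clusters 0 to 5. It lay under 0.1 times another class in the control library, where blood endothelial cells held 906 CPM; they held 866 CPM in the exposed library, and pericytes 535 and 537 CPM. Col4a4, a basement membrane chain, stood at 128 and 85.3 CPM, a ratio of 0.668 (0.622 to 0.719), while the main basement membrane chains Col4a1 and Col4a2 had ratios of 1.06 and 1.11. In sub-cluster 3 Col4a4 stood at 162 and 48.2 CPM, and in sub-cluster 2 at 116 and 135 CPM.

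Past 1.2-fold, 3 of 23 genes that make and crosslink collagen were higher and 0 lower, against 5.25% and 6% of all genes, with a median log2 ratio of 0.07. Lox, lysyl oxidase, stood at 60.4 CPM (56.8 to 64.2) and 113 CPM (107 to 119), a ratio of 1.87 (1.72 to 2.02), and its relatives Loxl1, Loxl3 and Loxl2 had ratios of 1.35, 1.23 and 1.18. Within 1.2-fold lay, with Loxl2, the collagen chaperone Serpinh1 at 1696 and 1726 CPM, a ratio of 1.02, and Plod2, a lysyl hydroxylase, at 0.910. Lox levels differed by sub-cluster: it stood at 199.5 and 298 CPM in sub-cluster 3, at 25.3 and 107 CPM in the mitotic sub-cluster 4, and at 11.3 and 14.9 CPM in sub-cluster 1.

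Proteases and their inhibitors were split as well, with 7 of 25 at least 1.2-fold higher, 4 lower, against 5.25% and 6% of all genes, and a median log2 ratio of 0.03, which ran from −0.04 to 0.10 over the alternatives. Timp1, an inhibitor of matrix metalloproteinases, stood at 118 CPM (113 to 123) and 223 CPM (215 to 231), a ratio of 1.89 (1.79 to 2.002). It was higher in each of sub-clusters 0 to 5, with sub-cluster 3 at 354 and 636 CPM. Luteal cells held 555 and 337 CPM of Timp1, and its ratio was 1.02 in blood endothelial cells and 1.01 in macrophages. The metalloproteinases Mmp19 and Mmp11 stood at ratios of 1.55 and 1.52, and Adamts4, an aggrecanase, at 558 and 714 CPM, a ratio of 1.28. Timp3 and Timp2 stood at 1.10 and 1.04. At the other end were Adamts5, another aggrecanase, at 0.726 and the protease inhibitor Serpine2 at 0.779.

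**Figure D5:**
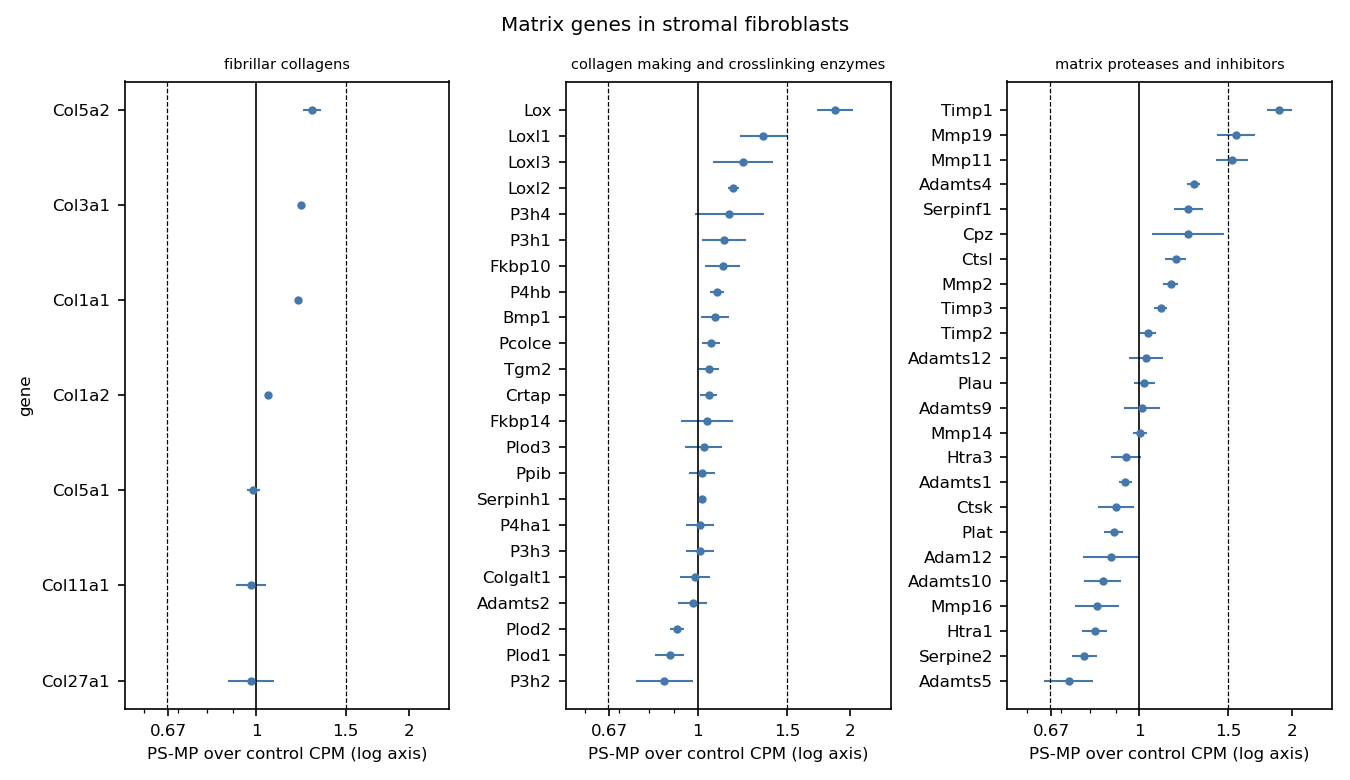
Ratio of PS-MP to control CPM (log axis) in stromal fibroblasts for 7 fibrillar collagens, 23 collagen-making enzymes and 24 of the 25 measured proteases or inhibitors; bars are exact 95% counting intervals, the solid line marks 1 and the dashed lines 1.5-fold. Lox and Timp1 lie farthest to the right, at 1.87 and 1.89.

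Proteoglycans and microfibrils had members on both sides of 1, and the shares of all genes past 1.2-fold were again 5.25% higher and 6% lower. Of 7 small leucine-rich proteoglycans 0 were at least 1.2-fold higher and 2 lower, and of 17 elastic fibre genes 4 were higher and 1 lower. Mfap5 had a ratio of 1.38 and Ltbp2, a binder of microfibrils, 1.46, while Ltbp4, which stores latent TGF-beta, stood at 409 and 336 CPM, a ratio of 0.823. Among 27 basement membrane and matricellular genes, 3 were higher and 3 lower. Tnc stood at 59.4 and 91.1 CPM, a ratio of 1.53, but at 364 and 382 CPM in sub-cluster 3, which held most of it, a ratio of 1.05 (0.948 to 1.16); with sub-clusters weighted alike the ratio was 1.198. Luteal cells held 655 and 80.0 CPM of Tnc. Ccn2, a target of YAP and TGF-beta signals, stood at 88.4 and 60.8 CPM, a ratio of 0.687 (0.630 to 0.749).

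Cytoskeletal genes past 1.2-fold were mostly higher. Vim, the intermediate filament of mesenchymal cells, stood at 1809 CPM (1789 to 1829) and 2418 CPM (2391 to 2444), a ratio of 1.34 (1.32 to 1.36), and was higher in each of sub-clusters 0 to 5. Of 46 contractile and actin genes, 5 were at least 1.2-fold higher and 0 lower, against 5.25% and 6% of all genes. Their median log2 ratio was 0.05. Of 23 tubulin and intermediate filament genes, Vim among them, 3 were higher and 1 lower, with a median log2 ratio of −0.003. Acta2, the smooth muscle actin that marks contractile fibroblasts, stood at 368 and 494 CPM, a ratio of 1.34 (1.30 to 1.39). Sub-clusters differed in the direction of Acta2, with 309 and 650 CPM in sub-cluster 0 and 421 and 234 CPM in sub-cluster 3. Actb and Actg1, the cytoplasmic actins, stood at ratios of 1.03 and 1.202. S100a6, a calcium-binding protein, stood at 66.3 and 132 CPM, a ratio of 1.98 (1.84 to 2.14). Luteal cells held 1830 and 804 CPM of S100a6, so that fibroblasts stood at 3.62% and 16.4% of them, and its ratio was 1.42 in blood endothelial cells and 0.998 in macrophages.

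Growth factor and receptor genes were split, as 4 of 30 were at least 1.2-fold higher and 4 lower, against 5.25% and 6% of all genes. Igfbp5, which binds insulin-like growth factors, stood at 117 and 201 CPM, a ratio of 1.72 (1.62 to 1.82). The largest part lay in sub-cluster 3, where Igfbp5 stood at 127 and 668 CPM. In sub-clusters 1 and 2 its ratios were 0.994 and 0.972, in sub-clusters 4 and 5 they were 1.69 and 1.09, and in sub-cluster 0 it stood at 118 and 63.6 CPM. Igfbp4 stood at 668 and 958 CPM, a ratio of 1.43 (1.40 to 1.47), and was higher in each of sub-clusters 0 to 5. Hgf, which acts on epithelia through the receptor Met, stood at 38.7 and 24.97 CPM, a ratio of 0.645 (0.564 to 0.738). In sub-cluster 0 Hgf stood at 116 and 61.7 CPM, a ratio of 0.531. Its ratios were 1.02 to 1.24 in sub-clusters 1 to 4 and 0.722 in sub-cluster 5, with intervals that include 1.

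Car3 and Spp1 had the highest ratios of all genes named by the rule, and both rested on few cells. Car3 stood at 15.4 and 75.7 CPM, a ratio of 4.92 (4.29 to 5.65), with UMIs in 39 of the control and 73 of the exposed fibroblasts; the 5 highest cells held 44.7% and 37.2% of them. Spp1 stood at 22.5 and 106 CPM, a ratio of 4.70 (4.20 to 5.28), with UMIs in 30 and 93 cells and 78.0% and 40.5% in the 5 highest. Spp1 was also higher in exposed theca cells (2.09 and 37.4 CPM) and stood at 6.399 and 617 CPM in luteal cells, the class that was more frequent in that library. Macrophages held 462 and 525 CPM of Spp1. The part of free RNA from these classes in the fibroblast value was not tested. Counting intervals treat molecules as independent and so are too narrow for genes held by so few cells. The ratio of Car3 ran from 3.06 with cells thinned to 15.3 in cells with all 6 markers, and that of Spp1 from 4.69 to 7.41 over the alternatives.

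Ephx2, soluble epoxide hydrolase, stood at 95.4 and 191 CPM, a ratio of 2.001 (1.88 to 2.13). In sub-clusters 3 and 4 its levels were 244 and 470 CPM and 45.2 and 162 CPM, in sub-cluster 5 they were 209 and 207 CPM, and theca cells had a ratio of 2.13. Luteal cells held 2551 and 1491 CPM of Ephx2, so that fibroblasts stood at 3.74% and 12.8% of them, and granulosa cells 456 and 457 CPM; the part of free RNA in the fibroblast value was not tested. Chchd10, a mitochondrial protein, stood at 41.5 and 92.5 CPM, a ratio of 2.23 (2.03 to 2.45). It was also higher in theca cells (79.4 and 142 CPM), granulosa cells (260 and 329 CPM) and luteal cells (587 and 806 CPM). The same held for pericytes (78.2 and 123 CPM) and each of the remaining classes. In the control library fibroblasts lay under 0.1 times luteal cells, and the part of free RNA in the Chchd10 value was not tested.

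Penk, whose product is cut into opioid peptides, had the lowest ratio of the genes with at least 50 CPM in a library. It stood at 80.9 CPM (76.7 to 85.2) and 37.4 CPM (34.2 to 40.8), a ratio of 0.462 (0.416 to 0.512). It was lower in each of sub-clusters 0 to 5, from 0.257 in sub-cluster 1 to 0.617 in sub-cluster 2. Thinned shares of fibroblasts with a UMI were 13.8% and 8.65%, against 1.08% and 1.04% of granulosa cells, and unthinned shares were 21.97% and 13.7%, against 2.99% and 2.63%.

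Rbbp7, a histone-binding subunit of chromatin complexes, was the most abundant of the 10 lowest, at 808 CPM (795 to 822) and 538 CPM (525 to 550), a ratio of 0.665 (0.646 to 0.685). Its ratio was 0.595 to 0.674 in sub-clusters 0, 1, 2, 4 and 5 and 1.01 (0.920 to 1.11) in sub-cluster 3. Theca cells had 341 CPM in both libraries and granulosa cells 470 and 457 CPM, ratios of 1.00 and 0.972. Rasd1, a dexamethasone-induced Ras-like protein, stood at 138 and 89.4 CPM, a ratio of 0.646, and was lower in each of sub-clusters 0 to 5. Ano4, Csmd1, Pde7b, Man1a and the WNT receptor Fzd8 completed the set with ratios of 0.639 to 0.690.

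Transcription factor, hedgehog, TGF-beta and BMP genes mostly lay within 1.2-fold. Of 30 fibroblast transcription factors, 0 were at least 1.2-fold higher and 2 lower, against 5.25% and 6% of all genes. Of the 30, 15 had ratios above 1. The lower ones were Foxp2 at a ratio of 0.785 and Snai2 at 0.831. Nr2f2, a nuclear receptor of stroma, stood at 1180 and 1174 CPM. Of 9 hedgehog response genes, 0 were higher and 2 lower. The lower ones were Gli3, at a ratio of 0.739, and the ligand trap Hhip, at 291 and 232 CPM, a ratio of 0.796. The receptor Ptch1 stood at 475 and 468 CPM, a ratio of 0.985, and the target Gli1 at 1.05. Of 30 TGF-beta and BMP genes 0 were higher and 9 lower, beside 6% of all genes, with a median log2 ratio of −0.04. Past 1.5-fold 1 of them was lower, at a ratio of 0.628. Its level lay under 0.1 times another class, and the part of free RNA in its value was not tested. The 9 lower genes included the ligands Bmp2 (0.733) and Bmp4 (0.781) and the pseudoreceptor Bambi (0.737). Of 18 WNT genes 4 were higher and 3 lower, with the antagonist Sfrp1 at 223 and 309 CPM, a ratio of 1.39.

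Of 33 cell cycle genes 0 were higher and 5 lower past 1.2-fold, against 5.25% and 6% of all genes, among them Mki67 at 123 and 94.9 CPM, a ratio of 0.770. Their median log2 ratio was −0.11 and its sign turned with the choice of cells, with a range of −0.17 to 0.05 over the alternatives. Of 39 immediate early genes, a group that digestion of tissue can induce, 1 was higher and 1 lower, with Fos at 3779 and 3457 CPM. Heat shock genes had 3 of 33 higher and 0 lower, led by Hspa1b at 60.6 and 88.4 CPM, a ratio of 1.46. Of 54 DNA and histone modifying enzymes, which set the epigenetic state that the series title speaks of, 1 was higher (Eed, 1.24) and 2 were lower (Tet1, 0.787, which was 1.06 in cells with all 6 markers, and Sirt1, 0.798), shares below those of all genes. Their median log2 ratio was −0.08.

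Genes in the range of free RNA are given apart. Cyp11a1, which makes pregnenolone from cholesterol, was measured at 57.3 and 236 CPM in fibroblasts, a ratio of 4.13, against 8892 and 7111 CPM in luteal cells; it also stood at 42.4 and 121 CPM in endothelial cells and at 79.0 and 158 CPM in macrophages. Fdx1, its electron donor, stood at 100.2 and 252 CPM in fibroblasts, 46.6 and 129 CPM in endothelial cells and 50.4 and 122 CPM in macrophages. Lyz2, the macrophage lysozyme, stood at 91.1 and 47.1 CPM in fibroblasts, 39.1 and 18.2 CPM in granulosa cells and 38.3 and 46.3 CPM in luteal cells. The 5 fibroblasts with the most Lyz2 held 62.8% of its control and 84.1% of its exposed UMIs. In sub-cluster 6 it stood at 4535 and 3235 CPM. The part of free RNA or mixed cells in the fibroblast values of these genes was not tested, and no expression in fibroblasts is read from them.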

How the data were processed

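Ovarian cells of 2 libraries, 1 per group, were captured on BD Rhapsody beads and sequenced, per the labels' protocols. The authors deposited raw UMI counts per gene and cell for 15373 control and 15056 PS-MP cells. The submitters' processing notes name Seurat and GRCm39 without a role; which aligner, counter and cell caller were used is not given in the sources used here.

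Cells with at least 500 genes and at most 25% mitochondrial counts were kept. Members and other classes were assigned by marker rules, and counts of a class were summed per library and given as CPM with exact Poisson intervals, with ratios as PS-MP over control and exact conditional binomial intervals, all at 95%. List medians are of log2 ratios after adding 1 CPM, over genes with at least 20 CPM in a library. With 1 library per group no test was made; intervals cover counting error only. Named genes were the 10 highest and 10 lowest ratios and the 15 most fibroblast-specific genes at 50 CPM or more and at least 0.1 times every other class in the library where their fibroblast level was higher, a limit that the difference itself helps to pass, and up to 4 members of each list by ratio and by level. Other genes named, and all sub-cluster values, were chosen after values were seen, and a few list members are counted but not reported here by name. The members and lists were chosen with earlier results of these data known. Doublets were marked with scrublet (expected rate 0.05) and kept. Sub-clusters came from 2000 variable genes, 20 components, 15 neighbours and Leiden resolution 0.4.

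Tools were python 3.11.15, scanpy 1.11.5, leidenalg 0.10.2, scipy 1.17.1, numpy 2.4.6, pandas 2.3.3 and matplotlib 3.10.9. The ratio step was tested on simulated data. Alternatives were stricter member rules, thinning, other weights and scalings, other floors and other added values.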

Additional observations from a re-analysis of the deposited data

Results flagged for a closer look

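Genes named by the rule are given here where the ratio of PS-MP to control CPM was past 1.5-fold in one direction in stromal fibroblasts and past 1.5-fold in the other in another class, with both counting intervals excluding 1 and at least 20 CPM in that class. The classes compared were theca, blood endothelial, macrophage, pericyte, granulosa and luteal cells. None of these differences was tested. Cd34, a surface sialomucin, had a ratio of 0.647 in fibroblasts, where its level was under 0.1 times another class, and 2.42 (1.62 to 3.61) in macrophages, where it stood at 9.74 and 23.6 CPM. Igfbp5 had a ratio of 1.72 in fibroblasts, 0.303 (0.250 to 0.366) in blood endothelial cells, at 220 and 66.6 CPM, and 0.646 (0.514 to 0.806) in pericytes, at 482 and 312 CPM. Lhcgr, the luteinizing hormone receptor, had a ratio of 1.83 in fibroblasts, where its level is in the range of free RNA, and 0.470 (0.448 to 0.494) in granulosa cells, at 64.8 and 30.5 CPM. Rasd1 had a ratio of 0.646 in fibroblasts and 1.78 (1.19 to 2.65) in macrophages, at 11.6 and 20.7 CPM. Against luteal cells, which were 501 and 2392 in number, more genes met these limits. The luteal cells of the 2 libraries were also far apart in other genes. Edn2, endothelin 2, stood at 9.67 and 273 CPM in them and Spp1 at 6.399 and 617 CPM. Whether the luteal ratios compare like cells was not tested. Cd34 had a ratio of 7.21 in luteal cells, where it stood at 10.5 and 75.9 CPM. Igfbp5 had one of 0.338 there, at 156 and 52.9 CPM. Cp had ratios of 1.60 in fibroblasts and 0.184 in luteal cells, Cxcl10 of 1.62 and 0.624, Timp1 of 1.89 and 0.607, and Tnc of 1.53 and 0.122. For Ephx2 the ratios were 2.001 and 0.584, for S100a6 1.98 and 0.439, and for Star, which brings cholesterol into mitochondria and whose level in fibroblasts is in the range of free RNA, 1.98 and 0.241.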

How the results depend on the processing

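The control and PS-MP shares of fibroblasts were 18.2% and 15.9% with at most 10% mitochondrial counts, 5.12% and 3.90% with all 6 markers, 10.6% and 9.69% with a marker sum of at least 4000 CPM, and 5.999% and 5.59% without cells with a UMI of another type. Of cells with Cyp11a1 under 2000 CPM they were 12.6% and 12.6%, and of cells with Inha under 5000 CPM 23.9% and 21.5%; without cells marked by scrublet they were 11.9% and 10.5%. The count of genes at least 1.5-fold higher was 108 with all 6 markers, 173 at a floor of 5 CPM and 19 at 100 CPM, and 49 to 77 otherwise. The count lower was 44 with all 6 markers, 44 without cells with a UMI of another type, 42 with thinned cells, 138 at 5 CPM and 4 at 100 CPM. It was 15 without genes under 0.1 times another class, and the counts were 42 and 15 without genes under it in either library, alternatives chosen after seeing the data. Of called genes 73.6% were higher, against 60.7% with thinned cells and 63.6% without cells with a UMI of another type. This share was 55.6% at a floor of 5 CPM and 82.6% at 100 CPM. The interferon-stimulated gene median was 0.36 as a mean of single-cell CPM, 0.43 with sub-clusters weighted alike, 0.42 scaled by the median ratio, 0.37 at 100 CPM and 0.37 with 10 CPM added. Among named genes past 1.5-fold, ratios reversed for Lhcgr, to 0.981 with sub-clusters weighted alike, and for Lyz2, to 1.04 with at most 10% mitochondrial counts, 1.56 with all 6 markers and 1.91 without cells with a UMI of another type. The cause of these shifts was not tested. No paired analysis was possible because each group is 1 library.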

Other observations

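Past 1.2-fold, 8 of 29 lipid and cholesterol genes were higher and 0 lower, against 5.25% and 6% of all genes, with a median log2 ratio of 0.14, or 0.04 over members with at least 100 CPM. Plin1, a lipid droplet coat protein, stood at 32.1 and 43.9 CPM, a ratio of 1.37. Antioxidant genes had 6 of 35 higher and 0 lower, against the same shares. Trf, the iron carrier transferrin, had the highest ratio, 1.76, and lay under 0.1 times macrophages, which held 518 and 616 CPM; the part of free RNA in its value was not tested. The others included Cp, the copper carrier ceruloplasmin, at 25.7 and 41.1 CPM, a ratio of 1.60, and Gpx3, a secreted peroxidase, at 66.6 and 97.2 CPM, a ratio of 1.46.

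Prostaglandin and vasoactive genes had 1 of 15 higher and 5 lower, against 5.25% and 6% of all genes, with a median log2 ratio of −0.13. Npr3, the clearance receptor for natriuretic peptides, stood at 19.3 and 33.0 CPM, a ratio of 1.71, and Hpgd, which inactivates prostaglandins, at 22.9 and 13.0 CPM, a ratio of 0.569 (0.473 to 0.682). Ramp3, a receptor partner for adrenomedullin, had a ratio of 0.640.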
